A study of Mus musculus with 4 samples.

Results

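PTBP2 (nPTB) is the neuronal polypyrimidine tract binding protein, an RNA-binding protein that binds CU-rich sequences in pre-mRNA and mostly represses the exons beside them. It replaces its paralog PTBP1 when progenitors leave the cell cycle, and its own level falls again as neurons mature. Many cassette exons, which are exons that a transcript can include or skip, change their use over the same period. Here the knockout libraries were compared with each other, to ask which cassette exons still differed by stage and tissue when PTBP2 was lost. The comparison is the EmxKO minus the NesKO, and it holds 6607 of the 9319 cassette exons of the deposited tables. They are the middle exons of trios labelled as cassette exons, with 1 trio standing for each exon and at least 20 junction reads in both knockout libraries.

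The NesKO library was made from 2 whole brains at embryonic day 18 (E18) in which Nestin-Cre, active in progenitors of the whole nervous system, had deleted exon 4 of a floxed *Ptbp2* gene. The EmxKO library was made from cortex at postnatal day 1 (P1), where Emx-Cre acts in the projecting neurons of the forebrain and leaves other cells with an intact gene. Each has a littermate library labelled WT, and all 4 come from a Mixed C56Bl/6:129S2 background. The E18 libraries were not strand specific and the P1 libraries were, and the number of P1 animals is not given in the sources used here. Stage, tissue, Cre line, litter, library protocol and the extent of the exon 4 deletion all change together in this comparison and cannot be told apart. With 1 library per group there is no replicate check, so each test below compares the reads of 2 libraries and not the conditions.

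Counted once each, the junctions of the tables held 48367448 reads in the NesKO and 83110007 in the EmxKO, and 50188724 and 83394001 in the libraries labelled NesWT and EmxWT. The deleted exon 4 of *Ptbp2* (chromosome 3, 119455862 to 119456034, minus strand, mm9) had 0 inclusion reads on either junction and 257 skipping reads in the NesKO, so its inclusion was 0% with an upper 95% Wilson limit of 1.47%. In the EmxKO, 152 and 134 reads joined exon 4 to its neighbours against 680 that skipped it, an inclusion of 17.4% (14.9 to 20.1). Inclusion was 99.8% in the library labelled NesWT, and 68.5% (66.3 to 70.5) in the library labelled EmxWT. The skipping of exon 4 in 604 reads of that library goes against its label, and every direction drawn below from the wild-type pair rests on it.

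The markers of regions and cell types moved with the comparison. Normalised to 1000000 junction reads of the library, the summed reads of cortical projection neuron and dorsal forebrain markers were 521 in the EmxKO and 214 in the NesKO, and 6 of the 7 measured markers were higher in the EmxKO. The meninges list was at 1075 normalised reads in the NesKO and 24.7 in the EmxKO, with 0 of 5 markers higher in the EmxKO, and the list for midbrain, hindbrain and spinal cord was at 32.2 and 0.758, with 0 of 7 higher. Red blood cell markers, with globin copies of identical reads counted once, were at 4143 and 632, and markers of progenitors and cycling cells at 237 and 136. Oligodendrocyte lineage markers were at 73.4 in the NesKO and 106 in the EmxKO. The libraries labelled WT showed the same pattern for the region lists, as the plot of marker ratios shows. In bulk tissue, fewer cells of a type and less RNA per cell cannot be told apart, and the part of these shifts in the exon differences was not tested.

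**Figure D1:**
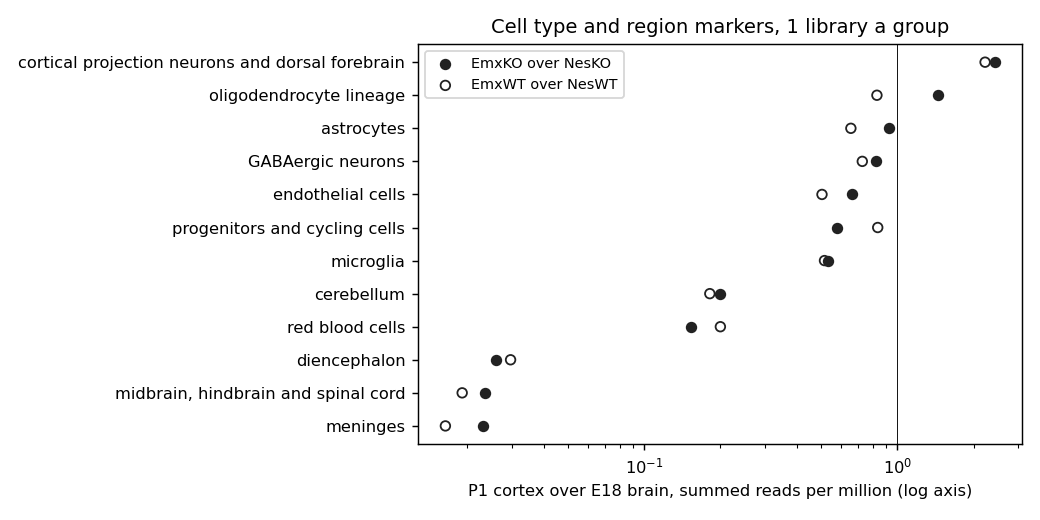
Ratio of the summed normalised reads of each marker list, P1 cortex over E18 brain, on a log axis, with 1 library a group. Filled points are the knockout pair and open points the pair labelled wild type; meninges and the lists for midbrain, hindbrain and diencephalon lie between 0.0164 and 0.0296 in both pairs, and the cortical list lies at 2.43 in the knockout pair and 2.22 in the other.

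The sequences of several coding exons that carry the comparison are given here as background for the values below. They were taken from GENCODE transcripts (GRCm38) whose exon and both introns have the lengths found in the tables, and the capitals mark the cassette exon between the last and the first 15 bases of its neighbours. The first group holds short coding exons that were used more in the P1 cortex of both pairs:
Kif1a, 27 nt: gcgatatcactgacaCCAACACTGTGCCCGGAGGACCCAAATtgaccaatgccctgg
Evl, 63 nt: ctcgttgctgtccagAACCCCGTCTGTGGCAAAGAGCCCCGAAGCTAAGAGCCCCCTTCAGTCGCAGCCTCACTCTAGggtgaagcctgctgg
App, 57 nt: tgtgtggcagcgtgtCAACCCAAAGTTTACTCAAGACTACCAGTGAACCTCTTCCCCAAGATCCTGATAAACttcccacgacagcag
Rbfox2, 51 nt: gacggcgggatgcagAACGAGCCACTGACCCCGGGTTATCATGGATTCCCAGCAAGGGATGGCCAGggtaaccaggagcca
The second group was used less there:
Kif1a, 24 nt: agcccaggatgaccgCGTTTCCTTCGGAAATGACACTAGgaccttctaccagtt
Erc2, 36 nt: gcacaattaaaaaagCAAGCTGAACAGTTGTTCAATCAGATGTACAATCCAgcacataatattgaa
Cltb, 54 nt: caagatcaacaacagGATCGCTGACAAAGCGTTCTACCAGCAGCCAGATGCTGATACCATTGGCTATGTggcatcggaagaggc
The third group held its stage difference in only 1 genotype pair by the measures used here:
Ptbp1, 78 nt: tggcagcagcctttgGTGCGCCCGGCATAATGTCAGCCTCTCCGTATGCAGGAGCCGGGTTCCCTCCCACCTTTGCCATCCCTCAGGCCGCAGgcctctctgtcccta
Camk2b, 45 nt: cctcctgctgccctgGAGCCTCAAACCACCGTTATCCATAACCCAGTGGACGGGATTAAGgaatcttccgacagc
Ank2, 99 nt, exon 17 of 46: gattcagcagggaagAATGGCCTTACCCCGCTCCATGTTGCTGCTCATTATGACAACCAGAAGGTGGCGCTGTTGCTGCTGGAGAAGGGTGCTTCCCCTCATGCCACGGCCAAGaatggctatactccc
Ank2, 99 nt, exon 28 of 46: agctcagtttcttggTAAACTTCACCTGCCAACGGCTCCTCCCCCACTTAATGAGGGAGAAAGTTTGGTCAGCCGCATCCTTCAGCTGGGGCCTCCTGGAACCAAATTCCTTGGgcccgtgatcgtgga

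PSI, the percent of transcripts that include the exon, is the deposited inclusion ratio after correction, and a PSI computed from the junction reads was set beside it. Of the 6607 exons, 45 were set aside because their ratio was listed at 0 although their averaged inclusion reads outnumbered the skipping reads. The remaining 6562 exons of 4152 genes were compared. In all, 1213 exons (18.5%) of 1012 genes differed by at least 10 PSI points between the EmxKO and the NesKO. Of these, 540 (8.23% of exons compared) were higher in the EmxKO and 673 (10.3%) were lower, so that 44.5% (95% Wilson interval, 41.7 to 47.3) were higher. The median size of the difference over all compared exons was 2.4 points, and the median of the signed differences was -0.1.

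A difference was called supported where it reached 10 points in the same direction by the ratio and by the junction reads, and where a two-sided Fisher's exact test on the reads gave an adjusted p under 0.05 (Benjamini-Hochberg over all compared exons). This held for 516 exons (7.86%) in 457 genes, of which 237 (3.61%) were higher and 279 (4.25%) lower in the EmxKO. Fisher's test alone was passed by 1052 exons (16%). Among the supported exons 231 differed by at least 20 points, 86 by at least 30 and 32 by at least 40, and 8 of those 32 were higher in the EmxKO. In 309 of the 516, each of the 2 inclusion junctions taken alone against the skipping junction also gave 10 points with the same sign.

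The cutoffs are not natural breaks in these values. There were 123 exons with a difference from 10 to under 11 points and 153 from 9 to under 10. The 45 exons whose shallower library had 20 junction reads had a median difference of 5.2 points, and the 50 exons just under the minimum, at 19 reads, had one of 5.25. The compared exons had a median depth of 188 junction reads (NesKO) and 356 (EmxKO), at which 3 reads correspond to 1.6% and 0.843% inclusion. These intervals and floors cover counting error only.

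The following features describe the supported exons and were not tested. The length was a multiple of 3 in 312 of 516 (60.5%), against 50.7% of all compared exons, and among wholly coding exons in 73.1% against 59%. The median length was 81 nt for exons higher in the EmxKO, 105 nt for those lower, and 102 nt over all. Exons of 3 to 27 nt, the size of neuronal microexons, were supported in 26 of 325 cases (8%), with 14 higher, which is near the 7.86% of all exons. Exons annotated as UTR made up 15.7% of the supported set and 11.7% of the compared set, and exons found only in transcripts subject to nonsense-mediated decay made up 7.93% and 10.2%. A gene annotated on the other strand overlapped 4.38% of the supported exons and 5.77% of all, which matters here because the E18 reads carry no strand.

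The genes of the exons were also counted by how their own reads moved. Among 3922 exons in genes whose normalised reads differed by at most 1.5 times between the knockout libraries, 319 (8.13%) were supported. The share was 7.48% of 1190 exons in genes over 1.5 times higher in the EmxKO and 7.45% of 1422 exons in genes over 1.5 times higher in the NesKO.

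The pair of libraries labelled wild type shares no library with the knockout pair and was compared in the same way. It gave 1403 exons (21%) with 10 points, 608 of them higher (9.1%) and 795 lower (11.9%) at P1, and 693 supported (10.4%), with 305 higher (4.57%) and 388 lower (5.81%). For 1178 of the exons called in the knockouts all 4 libraries had 20 reads, and 775 of these (65.8%; 63 to 68.4) shifted the same way by 10 points or more in the wild-type pair, 32 shifted in the opposite direction and 371 shifted by less than 10 points. Among the 514 supported exons with reads in all 4 libraries, 392 (76.3%; 72.4 to 79.7) had 10 points in the same direction, 116 had less than 10 points and 6 had 10 points in the opposite direction. The sign was the same in 489 of the 514 (95.1%). The median size of the difference in these exons was 18.8 points in the knockout pair and 16.65 in the wild-type pair, where members were chosen on the first.

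Seen from the other side, 452 of 686 exons supported in the wild-type pair (65.9%, 62.3 to 69.3) moved 10 points in the same direction in the knockout pair. Over the 6429 exons with reads in all 4 libraries the stage differences had a Pearson r of 0.727 and a Spearman rho of 0.617. This is a description across exons, which are not replicates, and the points share the protocol and depth of each stage. Most exons of the plot of stage differences lie near the diagonal, and the largest departures lie to its right and below it.

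**Figure D2:**
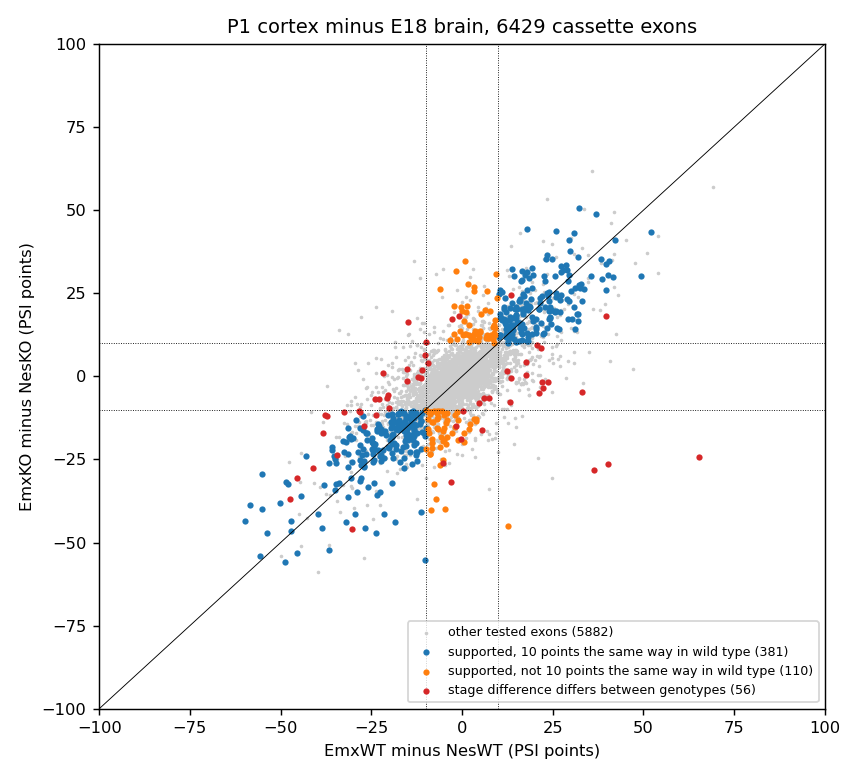
P1 cortex minus E18 brain in PSI points for 6429 cassette exons, the wild-type-labelled pair on the horizontal axis and the knockout pair on the vertical axis, 1 point an exon. Dotted lines mark 10 points and the solid line marks equal differences; blue points are supported in the knockouts and moved 10 points the same way in the wild-type pair, orange points are other supported exons, and red points are the 56 exons whose stage difference differed between genotypes by the Wald test.

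The exons named next were used more in the EmxKO than in the NesKO and moved the same way in the wild-type pair, with at least 50 junction reads in every library, and they were taken in order of size. Exons of that kind numbered 319 over both directions. Of the 59 supported exons chosen by the naming rule, 27 did not reach 10 points by each inclusion junction alone. *Uba3*, which encodes the catalytic subunit of the E1 enzyme for NEDD8, had a 42-nt coding exon (chromosome 6, 97155300 to 97155341, mm9) whose PSI was 25.7 in the NesKO against 74.7 in the EmxKO, and 30.5 and 67.5 in the libraries labelled NesWT and EmxWT. Its right junction held 0 reads in the NesKO and 15 in the EmxKO, so the rise was carried mainly by the left junction. An exon of the splicing factor gene *Rbm39* that is annotated only in a decay transcript (73 nt; chromosome 2, 156004616 to 156004688) rose from 29.1 to 72.1 in the knockouts and stood at 26.4 and 57.2 in the wild-type pair. The stages lay apart by over 30 points in each genotype.

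The 98-nt exon of *Dzip1*, a gene of primary cilium formation, stood at 29.6 in the NesKO and at 70.7 in the EmxKO, against 6.6 and 36.0 in the wild-type pair. Both knockout libraries were thus higher than their wild-type-labelled counterparts at the same stage, while the stage step was large in each pair. A UTR exon of *Pts*, which makes a precursor of tetrahydrobiopterin, was at 42.7 and 80.5 in the knockouts and 50.5 and 80.4 in the others. *Prr14*, a tether of heterochromatin to the nuclear lamina, had a 72-nt exon at 57.3 and 93.1, and at 60.2 and 92.2. Exons with reads on only 1 of the inclusion junctions were also among the largest: the 99-nt exon of the teneurin gene *Tenm4* (38.9 to 89.5) had 0 reads on its left junction in both libraries, and the 66-nt exon of *Apod*, an apolipoprotein gene, (37.4 to 80.8) had 1 and 0 reads on its right junction. The normalised reads of *Apod* in the EmxKO were 0.0945 times those in the NesKO.

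Among exons used less in the EmxKO, the 203-nt UTR exon of *Kyat1*, a kynurenine aminotransferase gene, fell from 87.2 in the NesKO to 31.4, with 91.1 and 42.4 in the wild-type pair (adjusted p by Fisher's exact test 6.1e-07). The 167-nt coding exon of *Cyp20a1*, a cytochrome P450 gene, fell from 89.8 to 35.7, with 87.5 and 31.8 in the wild-type pair. Its length is not a multiple of 3. *Ipo9*, an importin, had a 111-nt exon annotated in a decay transcript, at 75.1 (NesKO) and 29.3 (EmxKO), and at 60.9 and 30.7 in the others. The P1 libraries were alike here and the NesKO was the highest, so that the knockout stage step was 15.6 points larger (adjusted p by the Wald test 0.0064).

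The most deeply read of these exons was the 77-nt UTR exon of *Morf4l2*, a gene of the histone acetyltransferase complex NuA4, with 2303 skipping reads in the EmxKO. Its PSI was 71.2 in the NesKO and 27.7 in the EmxKO, and 74.8 and 27.7 in the wild-type pair. The fall was carried by the left junction, since the right junction alone gave 21.1 and 16.4 in the knockouts. *Tbc1d24*, a gene of synaptic vesicle trafficking, had an 18-nt microexon at 52.7 (NesKO) and 11.2 (EmxKO), and at 26.1 and 4.6 in the others. The remaining exons of this group were in *Npcd* (76.4 to 29.2), *Uggt2* (98.9 to 51.9), *Rer1* (80.2 to 34.6) and, rising, in the bromodomain gene *Baz2b* (35.4 to 70.6). The plot of these 16 exons shows the E18 libraries on one side and the P1 libraries on the other in each of them.

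**Figure D3:**
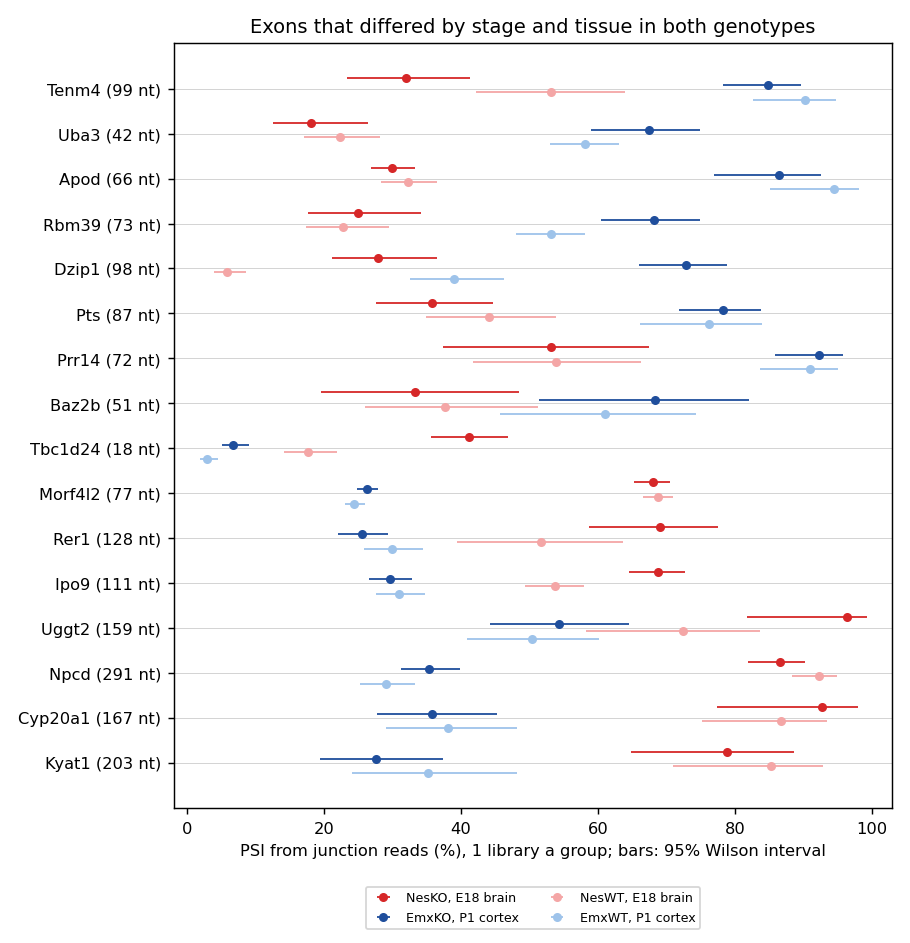
PSI computed from junction reads for the 8 exons with the largest rise and the 8 with the largest fall that moved the same way in both genotype pairs, 1 point a library with its 95% Wilson interval. Red shades are E18 brain and blue shades are P1 cortex; dark shades are knockouts. In every row the E18 points lie on the same side of the P1 points.

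Splicing regulators were the gene list with the largest share of supported exons. Of 109 exons compared in 53 genes, 16 were supported (14.7%, against 7.86% of all exons), 4 higher and 12 lower in the EmxKO. By the ratio, 15 of the 16 had 10 points in the same direction in the wild-type pair. The median difference of the list was -0.2 points, against -0.1 over all exons. *Rbfox2*, which binds UGCAUG and drives many neuronal exons, rose in its 51-nt exon (exon 2 of 13; chromosome 15, 77061817 to 77061867, minus strand) from 41.8 in the NesKO to 73.3 in the EmxKO. The wild-type pair stood at 45.9 and 73.2, so the genotypes lay close together at each stage. The paralog *Rbfox1* had a 53-nt exon at 78.7 and 57.2 in the knockouts, and at 70.3 and 61.9 in the wild-type pair, where the fall was under 10 points.

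*Celf1*, a regulator of splicing and of mRNA decay, had a 152-nt exon at 67.2 (NesKO) and 27.2 (EmxKO) and at 78.4 and 23.2 in the other pair. Its left junction alone went the other way, with 1 read against 43 skipping reads in the NesKO and 150 against 458 in the EmxKO. The kinase gene *Clk4*, which phosphorylates SR proteins, had its 91-nt exon at 58.3 and 33.8, and at 80.1 and 64.1. Both knockouts were lower than their wild-type-labelled libraries in this exon. Exons that lead to decay of the mRNA moved apart in the paralogs *Tra2a* and *Tra2b*, activators of splicing that limit their own level through such exons. The 306-nt exon of *Tra2a* rose from 13.8 to 34.8 (24.1 to 35.7 in the wild-type pair). By junction reads the wild-type pair stood at 13% and 14%. The knockout rise was carried by the right junction, with 13 reads in the NesKO and 96 in the EmxKO. The left junction held 30 reads against 315 skipping reads in the NesKO, and 19 against 207 in the EmxKO. The 276-nt exon of *Tra2b* fell from 26.7 to 11.6 (29.7 to 12.8). This fall was carried mainly by the left junction. The right junction held 74 reads against 472 skipping reads in the NesKO, and 129 against 1098 in the EmxKO.

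Among the hnRNP genes, the 83-nt UTR exon of *Raly* fell from 63.4 to 43.4, the 26-nt UTR exon of *Hnrnpc* from 64.9 to 49.1, and the 141-nt exon of *Hnrnpab* from 32.9 to 17.9. The 147-nt exon of *Hnrnpd* fell from 76.8 to 62.6 and the 120-nt exon of *Hnrnpa2b1* from 95.6 to 84.7. All 5 were lower by at least 10 points in the wild-type pair too. They stood at 37.6, 49.9, 13.5, 65.8 and 79.8 in the library labelled EmxWT. By the left junction alone *Raly* and *Hnrnpc* went the other way between the knockouts. In *Raly* it held 422 reads against 628 skipping reads in the NesKO, and 1088 against 1270 in the EmxKO. In *Hnrnpc* it held 301 against 622 in the NesKO, and 1031 against 1495 in the EmxKO. Supported steps were also found in *Tia1* (27.4 to 9.5), *Rbm10* (32.5 to 21.6) and the neuronal HuD gene *Elavl4* (92.5 to 81.5). A supported rise was found in *U2af1* (66.5 to 84.0), which encodes the small subunit of the factor that recognises the 3′ splice site. The left junction of *Rbm10* and the right junction of *U2af1* did not show these steps when taken alone.

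Genes of the cytoskeleton and its motors had 26 of 194 exons supported (13.4%), 10 higher and 16 lower, and 20 of them in the same direction in the wild-type pair. *Evl*, an Ena/VASP protein that promotes actin filament growth, rose in its 63-nt exon (chromosome 12, 109921558 to 109921620) from 12.0 in the NesKO to 42.3 in the EmxKO, beside 10 and 45.5 in the wild-type pair. This exon was named after its values were seen. The actin-binding gene *Cttn* fell in its 111-nt exon from 63.7 to 33.1, beside 68.0 and 22.6 in the others. The fall in *Cttn* was 14.8 points smaller in the knockout pair (adjusted p by the Wald test 0.0006).

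*Kif1a*, the kinesin that carries synaptic vesicle precursors, moved in both directions within the gene. Its 27-nt exon (chromosome 1, 94962129 to 94962155, minus strand) rose from 27.4 to 53.7, with 2637 skipping reads in the NesKO and 2146 in the EmxKO, and by 31.4 points with the left junction alone and 6.7 with the right. Its 24-nt exon (94923409 to 94923432) fell from 72.8 to 50.6, and both moved the same way in the wild-type pair, to 57.4 and 32.5 in the library labelled EmxWT. These *Kif1a* exons were named after their values were seen, as were the *Ptprf*, *Cadm1* and *Atxn2* exons that follow. In all, 51 genes had 2 or more supported exons and 12 had them in both directions. The receptor phosphatase *Ptprf* rose in a 27-nt exon (68.5 to 88.8) and fell in exons of 579 nt (39.2 to 21.3) and 306 nt (32.9 to 15.4). The fall of the 306-nt exon was carried by the left junction alone. Its right junction held 25 reads against 197 skipping reads in the NesKO, and 131 against 622 in the EmxKO. The adhesion gene *Cadm1* rose in an 84-nt exon (20.6 to 38.9, beside 15.1 and 54.7 in the wild-type pair, a step that was larger there with an adjusted p of 0.00018 by the Wald test) and fell in a 33-nt exon (94.2 to 80.6), and *Atxn2*, the ataxin-2 gene, rose in a 210-nt exon (71.1 to 85.5) and fell in a 169-nt exon (70.2 to 42.9).

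Genes of presynaptic release and vesicle recycling had 13 of 101 exons supported (12.9%), 4 higher and 9 lower, with 10 in the same direction in the wild-type pair. *Rims1*, a scaffold of the active zone, fell in an 84-nt exon from 55.2 to 16.6, beside 72.8 and 14.5, and *Erc2*, its partner there, fell in a 36-nt exon (chromosome 14, 28842620 to 28842655) from 74.1 to 39.8, beside 69.4 and 34.4. These steps are of like size in both genotype pairs for *Erc2*, where they differed by 0.7 points. The dynamin gene *Dnm1*, whose product severs endocytic vesicles, had a 37-nt exon at 87.3 (NesKO) and 54.9 (EmxKO). It was at 63.6 and 55.9 in the wild-type pair. This is exon 22 of 23 of the matched transcript, and not either of the mutually exclusive *Dnm1* exons that the study examined. By junction reads the knockout step was -16.8 points and the wild-type step had the other sign, 6.8 points. The NesKO stood apart from the other libraries, although the difference of the stage steps missed the threshold of the Wald test, at an adjusted p of 0.083. *Erc1*, a paralog of *Erc2*, rose in a 139-nt UTR exon from 16.7 to 31.6, beside 8.2 and 21.5.

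Clathrin light chain b, *Cltb*, was named after its values were seen. Its 54-nt exon, found mainly in neurons, (chromosome 13, 54698387 to 54698440, minus strand) was at 84.1 in the NesKO and 59.0 in the EmxKO, and at 63.7 and 35.6 in the wild-type pair. Each knockout was over 20 points above its own wild-type-labelled library, and the stage step was of like size in both pairs.

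Ion channels and pumps had 9 of 65 exons supported (13.8%), 1 higher and 8 lower in the EmxKO, and 6 had 10 points in the same direction in the wild-type pair. A 33-nt exon of *Kcnip1*, a subunit of A-type potassium channels, fell from 30.1 to 5.3, beside 40.6 and 5.7. A 154-nt exon of the calcium pump gene *Atp2b3* fell from 39.9 to 15.3, beside 40.1 and 21.1, and the corresponding 154-nt exon of *Atp2b1* fell from 83.5 to 67.8, beside 72.5 and 49.1. *Kcnma1*, the BK channel, fell in an 81-nt exon from 29.2 to 5.9, beside 11.8 and 3.0, where the NesKO was again the highest library.

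Postsynaptic receptors and scaffolds had the smallest share, 4 of 66 exons (6.06%), with 2 higher and 2 lower. A 165-nt exon of *Dlg4*, the PSD-95 gene, was at 85.0 and 71.8, beside 87.7 and 73.7, with its inclusion reads almost all on the left junction (4692 against 44 in the NesKO). In *Grip1*, a scaffold of AMPA receptors, a 156-nt exon rose from 47.8 to 63.9, beside 43.7 and 65.6. The 2 exons of this list that also had 10 points in the wild-type pair were those of *Dlg4* and *Grip1*.

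Cell adhesion and axon guidance genes had 18 of 139 exons supported (12.9%), 10 higher and 8 lower, and 16 in the same direction in the wild-type pair. *App*, the amyloid precursor protein gene, rose in its 57-nt exon 8 (chromosome 16, 85040496 to 85040552, minus strand) from 17.8 in the NesKO to 51.5 in the EmxKO, beside 12.4 and 52.2. By junction reads its levels were 42.9 and 69.6, beside 37.9 and 65.9, and the step was 37.4 points by the left junction alone and 7.1 by the right. Its 168-nt exon 7, which encodes the Kunitz protease inhibitor domain, was at 7.2 and 4.2 and was not called. The trio of the 57-nt exon begins at exon 7, so its skipping reads join exon 7 to the exon after exon 8. Transcripts that lack both exons give no reads to this trio. The levels of the 57-nt exon are therefore not shares of all *App* transcripts. The 33-nt exon of *Agrn*, the agrin gene, rose from 18.8 to 48.5, beside 14.7 and 33.3. This rise was carried mainly by the left junction. The right junction held 24 reads against 1024 skipping reads in the NesKO, and 65 against 807 in the EmxKO. The 30-nt exon of *Ncam1* was at 8.4 and 5.2 and was not called.

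Signalling kinases and small GTPase regulators had 12 of 112 exons supported (10.7%), 6 in each direction, and chromatin and transcription factors had 11 of 129 (8.53%), 3 higher and 8 lower. *Agap1*, a GTPase-activating protein for Arf proteins, fell in a 159-nt exon from 70.8 to 33.9, beside 75.0 and 27.7, on 1925 NesKO junction reads. *Rapgef6* rose in a 303-nt exon from 42.0 to 63.1, and by the ratio the wild-type pair stood at 51.9 and 53.2. By junction reads the wild-type pair rose too, from 40.7 to 52.4. The difference of the stage steps did not pass the Wald test, and the NesKO held only 88 junction reads here. The nucleosome remodelling factor *Bptf* fell in a 189-nt exon from 81.3 to 48.9, beside 78.5 and 30.5, and the transcription factor *Sox5* in a 147-nt exon from 99.4 to 68.0, beside 87.8 and 59.8. *Numbl* fell in a 100-nt exon from 27.8 to 5.3, beside 29.1 and 4.7. The shares of these lists, and of postsynaptic genes, are near that of all exons.

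**Figure D4:**
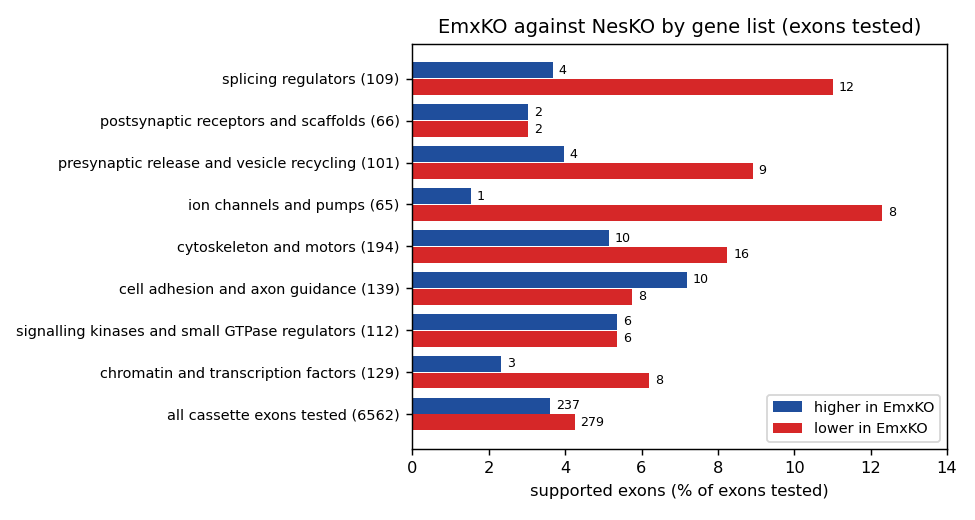
Supported exons of each gene list as a percent of the exons compared in it, with their number beside each bar; blue bars are higher in the EmxKO and red bars lower, and the number in brackets is the exons compared. The bottom row gives all 6562 exons, of which 237 were higher and 279 lower.

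The stage step itself was compared between the genotypes by a Wald test on the difference of the log odds ratios, adjusted over 6429 exons, with a difference of at least 10 points required as well. It called 56 exons (0.871%), 30 with a higher and 26 with a lower EmxKO minus NesKO difference than the wild-type pair. The step was larger in the wild-type pair in 42 of them and larger in the knockouts in 14, and in 24 it had opposite signs. Without the 10-point requirement 93 exons (1.45%) passed. A test on the scale of PSI points, with the same requirement, called 97 (1.51%). Among the 56, the library farthest from the median of the other libraries was the EmxWT-labelled one in 24 exons, the NesWT-labelled one in 18, the NesKO in 14 and the EmxKO in 0. The skipping of *Ptbp2* exon 4 in the library labelled EmxWT stands beside these results, and its part in them was not tested.

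With 50 reads in every library, 12 exons were supported in the wild-type pair, moved by under 5 points in the knockouts and passed the Wald test. *Ptbp1*, the paralog that PTBP2 replaces, had the largest difference among the named ones. Its 78-nt exon (chromosome 10, 79322862 to 79322939) lies in the linker between RNA recognition motifs, and skipping it is known to weaken the protein as a repressor. It was at 47.9 in the NesKO, 43.3 in the EmxKO, 47.3 in the library labelled NesWT and 80.4 in the library labelled EmxWT. The stage steps were -4.6 points in the knockout pair and 33.1 in the wild-type pair (adjusted p by the Wald test 1.7e-17). The intervals of the first 3 libraries overlap. The normalised *Ptbp1* reads of the EmxKO were 0.983 times those of the NesKO.

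Other RNA-binding proteins were of this kind. The 74-nt exon of the splicing factor gene *Rbm5* was at 89.3 and 87.6 in the knockouts and at 70.6 and 94.3 in the wild-type pair. The 57-nt exon of *Lsm14a*, a component of P-bodies, was at 70.5 and 67.1, beside 74.3 and 96.7, and the 36-nt exon of *Thoc5*, a subunit of the THO complex for mRNA export, was at 82.6 and 80.8, beside 34.3 and 56.4. In *Lsm14a*, as in *Ptbp1*, the library labelled EmxWT was the high value, while in *Thoc5* both knockouts were above both wild-type-labelled libraries. *Stau2*, which carries mRNA into dendrites, was at 15.2 and 14.9, beside 18.2 and 6.2, and *Lsm6* was at 49.5 and 48.1, beside 59.6 and 44.5.

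The 144-nt exon of *Ctnna2*, the neuronal alpha-catenin, was at 96.0 in the NesKO and 96.5 in the EmxKO, beside 73.7 and 91.2. The 45-nt exon of *Camk2b* (chromosome 11, 5881073 to 5881117, minus strand), the beta subunit of the calcium and calmodulin dependent kinase, was at 97.1 and 99.3, beside 40.9 and 87.9. Both exons were already included in nearly all transcripts of the E18 knockout, which leaves little room for a further rise. For *Camk2b* the stage steps differed by 44.8 points, which passed the test on PSI points (adjusted p of 7.9e-108) and not the Wald test on log odds (adjusted p of 0.13). The 73-nt exon of *Wiz*, a zinc finger protein of histone methyltransferase complexes, was at 34.1 and 35.0, beside 50.4 and 28.7.

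*Ank2*, the ankyrin that links membrane proteins to the spectrin skeleton, had exons of either kind, each of 99 nt. Exon 17 of 46 (chromosome 3, 126715591 to 126715689, minus strand) fell from 92.2 in the NesKO to 60.5 in the EmxKO, while the wild-type pair stood at 59.3 and 56.3 (adjusted p by the Wald test 2e-17). Only the NesKO was high, and mainly by the left junction. With the right junction alone inclusion was 68.5% in the NesKO and 59.6% in the EmxKO, a step of -8.9 points against -27.4 by the left junction. Exon 28 of the same transcript (126666301 to 126666399) was at 39.8 and 42.1 in the knockouts and at 59.1 and 44.0 in the wild-type pair, so the library labelled NesWT was the high one. A further 99-nt exon (126951052 to 126951150), named after its values were seen, rose from 23.2 to 47.9, beside 29.9 and 46.8, with 0 reads on its right junction in both knockouts.

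The other way round, 5 exons were supported in the knockouts, moved by under 5 points in the wild-type pair and passed the Wald test, *Ank2* exon 17 among them. *Papss1*, an enzyme that makes the sulfate donor of the cell, rose in a 177-nt UTR exon from 20.9 to 39.0, with 39.0 and 38.2 in the wild-type pair. In *Atrnl1* a 155-nt exon rose from 80.4 to 97.7, beside 91.7 and 88.9. Those of *Emc10*, a subunit of the membrane protein insertase of the endoplasmic reticulum, (46.0 to 27.2, beside 33.3 and 33.1) and of *Thap3* (99.0 to 84.0, beside 85.3 and 83.7) fell. In *Papss1*, *Emc10* and *Thap3* the NesKO was again the library apart from the other 3 by the ratio. The fall in *Emc10* was carried by the left junction. Its right junction held 190 reads against 513 skipping reads in the NesKO, and 607 against 1812 in the EmxKO.

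Opposite stage steps, supported in both pairs, were found in 2 named genes. *Aen*, a nuclease of the p53 response, had a 487-nt exon at 74.5 (NesKO) and 46.4 (EmxKO), beside 62.6 and 99.1. *Armcx1*, which is known for the transport of mitochondria in axons, had a 92-nt UTR exon on the X chromosome at 76.6 and 52.3, beside 29.5 and 94.7. With the trio that has the most skipping reads the knockout difference in *Armcx1* was -2.4 points. The plot of the differing exons shows the library labelled EmxWT to the right of the other points for both genes.

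**Figure D5:**
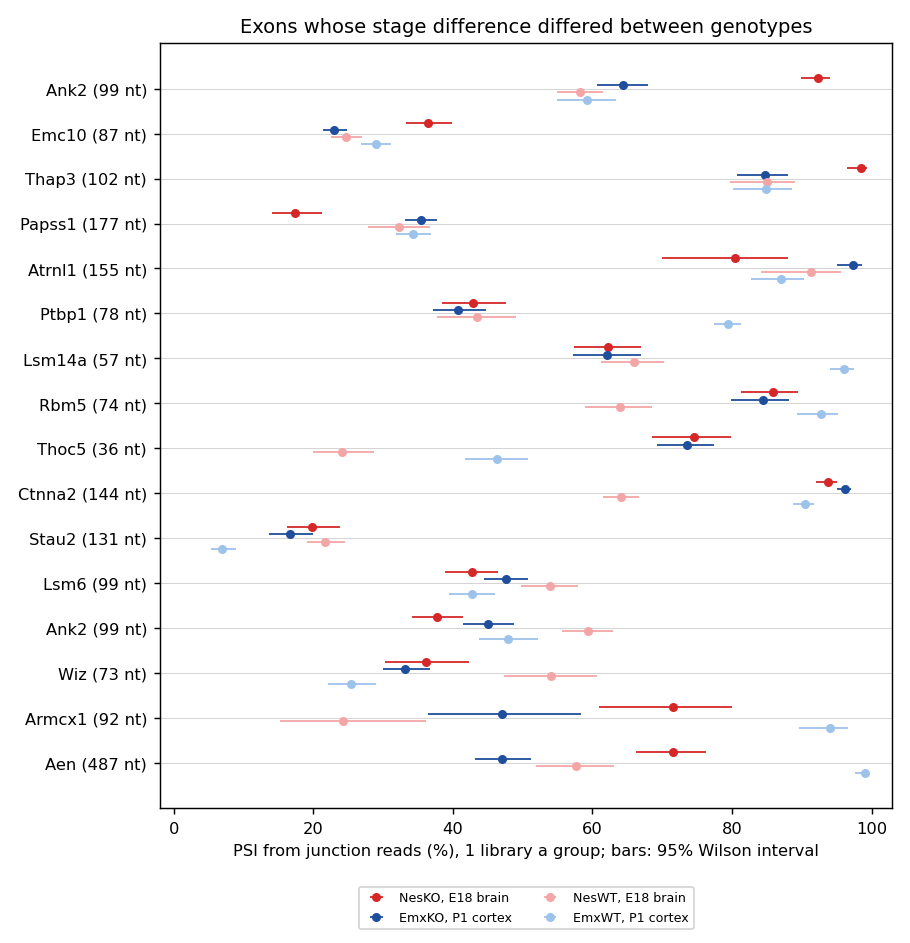
PSI computed from junction reads, with 95% Wilson intervals and 1 point a library, for exons that moved in the knockouts only (Ank2 exon 17 to Atrnl1, from the top), in the wild-type-labelled pair only (Ptbp1 to Wiz, with Ank2 exon 28) and in opposite directions (Armcx1 and Aen). Red shades are E18 brain, blue shades P1 cortex, and dark shades knockouts.

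Other exons came from genes that the study examined for splicing. In *Mical3*, an oxidase of actin, a 138-nt exon fell from 87.7 to 76.0 in the knockouts and from 80.5 to 42.8 in the wild-type pair. This stage step was 26 points smaller in the knockout pair (adjusted p by the Wald test 6.7e-05). By junction reads the knockout fall was 8.5 points. The 138-nt exon of *Dbn1*, drebrin, which binds dendritic actin, was at 24.0 and 14.2, beside 3.6 and 3.1, with 9115 skipping reads in the EmxKO. Its difference of -9.8 points lay just under the cutoff. The 168-nt exon of the scaffold gene *Magi1* (94.3 and 83.6) passed 10 points by the ratio only.

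The 85-nt exon of *Pitpnb*, a phosphatidylinositol transfer protein, was at 59.8 and 50.1, beside 30.5 and 21.3, and the 30-nt exon of the calcineurin gene *Ppp3ca* at 62.7 and 67.5, beside 44.8 and 43.5. In both exons the knockouts were above the wild-type-labelled libraries at either stage, and neither was called between the stages. Exons of *Gphn* (11.1 and 10.2) and *Numb* (12.1 and 13.0) differed by less than 5 points between the knockouts, although junction reads gave 9.0 points for *Numb*. The 378-nt exon of *Zfp277* was at 55.9 and 59.9 by the ratio but at 3.2 and 6.55 by junction reads, with 3 and 4 inclusion reads against 106 skipping reads in the NesKO, and its level is not settled by these tables. Over these counts, the absence of a call does not show that the exon was used alike.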

How the data were processed

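Poly(A) RNA was sequenced as 100-nt paired ends from 1 library per group. The authors aligned the reads with SpliceTrap to its collection of exon pairs and triplets (trios), and deposited an inclusion ratio, a fraction from 0 to 1 before and after a correction, for each of 228333 trios. The deposited junction reads are counts, not normalized. TopHat, Cufflinks and CASAVA are also named in the submitters' processing notes. Coordinates are mm9. Genes were named by matching the lengths of exon and introns to GENCODE release 21 (GRCm38) on the same chromosome and strand: 209930 trios matched by the exon and both introns, and 3742 were left unnamed. No coordinates were converted.

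Each cassette exon was represented by its most deeply read trio, summed over the 4 libraries. PSI was the ratio after correction in percent. For junction PSI, the reads of the 2 inclusion junctions were averaged and divided by this average plus the skipping reads. Fisher's exact test, two-sided, was run on the averaged inclusion reads, rounded, and the skipping reads. Stage steps were compared by a Wald test with 0.5 added to each count and by a test on PSI points. Adjustment was by Benjamini-Hochberg over all exons compared. Marker and gene levels are reads on distinct junctions, normalised to 1000000 such reads per library.

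Exons were named by rule, with 50 junction reads in all 4 libraries and 1 exon a gene: the 8 largest steps in each direction kept in both pairs, up to 5 in each direction that were supported in 1 pair, under 5 points in the other and past the Wald test, opposite steps, exons of genes the study examined, the 3 largest of each gene list, and all supported splicing regulators. A few exons that the rule names are not reported here. The members, the 8 gene lists and the 12 marker lists were chosen with earlier results of these data known. Alternatives were the measure, the read minimum, the cutoff, the trio, overlapping genes and the deposited class. The calculations were tested on simulated data. Python 3.11.15, numpy 2.4.6, pandas 2.3.3, scipy 1.17.1 and matplotlib 3.10.9 were used. The exon coverage columns were not used here.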

Additional observations from a re-analysis of the deposited data

Results flagged for a closer look

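For the 20 named exons given here the stage step, P1 minus E18, differed between the knockout pair and the pair labelled wild type by the Wald test on log odds (adjusted p under 0.05) and by at least 10 PSI points. The value is the knockout step minus the wild-type step in PSI points. It rests on 1 library per group, on a library labelled EmxWT that skipped *Ptbp2* exon 4 in part, and on tests of reads and not of animals.

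The step was lower in the knockouts by the following amounts, written with their sign: -89.5 for *Armcx1*, -64.6 for *Aen*, -37.7 for *Ptbp1*, -28.7 for *Ank2* exon 17, -25.8 for *Lsm14a*, -25.4 for *Rbm5* and -23.9 for *Thoc5*. It was -18.6 for *Emc10*, -17.0 for *Ctnna2*, -15.6 for *Ipo9* and -13.4 for *Thap3*. The step was higher in the knockouts by 26.0 points for *Mical3*, 22.6 for *Wiz*, 20.1 for *Atrnl1*, 18.9 for *Papss1*, 17.4 for *Ank2* exon 28, 14.8 for *Cttn*, 13.7 for *Lsm6*, 11.7 for *Stau2* and 10.4 for *Agap1*. In *Ipo9*, *Agap1*, *Cttn* and *Mical3* both pairs moved by at least 10 points the same way and the size of the step differed.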

How the results depend on the processing

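With 1 library per group no replicate could be left out. No paired analysis was possible because each group has 1 library and the labels carry no replicate numbers. The 1213 exons called at 10 points became 1820 with no minimum of junction reads, 421 at a cutoff of 20 points, 516 by both measures with Fisher's exact test, and, by alternatives chosen after seeing the data, 464 when each inclusion junction alone had to pass and 711 in genes within 1.5 times in normalised reads, where fewer exons (3922) were compared. The share of called exons higher in the EmxKO was 49.3% by junction reads, 48.7% at 20 points and 49.4% with each junction alone, outside the interval of the main value of 44.5%. The share moving the same way in the wild-type pair, 65.8%, was 60.8% by junction reads, 69% with 50 reads, 60.5% with no minimum, 55.9% at 20 points and 54.4% with each junction alone. The exons whose stage step differed, 56, became 21 at 20 points and 97 by the test on PSI points. Under the remaining alternatives these counts stayed within 1.5 times and the shares within their intervals. No named exon past 10 points changed direction by junction PSI, the ratio before correction or the trio with the most skipping reads. Of 78, all 78 kept their side of 10 points with the ratio before correction, 76 by junction reads (not *Magi1*, -9.5, and *Mical3*, -8.5) and 77 with the trio with the most skipping reads (not *Armcx1*, -2.4). Each inclusion junction alone was not part of that check. By the left junction alone *Raly*, *Hnrnpc* and *Celf1*, among others, went the other way. Calls near 10 points and exons with few reads are limited by depth.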

Other observations

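Other kinds of event in the tables moved between the knockouts as follows, at the same minimum of 20 junction reads and 10 points by the ratio and with no test. Retained introns had the largest share: 278 of 811 (34.3%) differed, 63 higher and 215 lower in the EmxKO, and 264 of 804 (32.8%) differed in the wild-type-labelled pair, 69 higher and 195 lower at P1. Alternative 3′ splice sites differed in 540 of 3573 cases (15.1%), 273 higher and 267 lower. Alternative 5′ splice sites differed in 327 of 2165 (15.1%), 130 higher and 197 lower. Exons labelled constitutive differed in 2387 of 116274 cases (2.05%), 1508 of them higher in the EmxKO. The E18 libraries carry no strand and the P1 libraries do, and the part of this in the intron values was not tested.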
